A study of Oryza sativa with 6 samples.

Results

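The genes of nitrogen uptake and assimilation examined here were measured in rice seedlings (Oryza sativa, cultivar Nipponbare). They were chosen by locus identifier from a list of known pathway genes, and 10 of 10 were found among the 30020 genes of the deposited table. RNA-seq had been performed on 30-day-old seedlings of oschz1 and of wild-type, with 3 libraries of each genotype. The oschz1 plants lack OsChz1, a histone chaperone that binds dimers of histone H2B with H2A or with the variant H2A.Z. By the study's methods, the mutant line was a single allele with a small deletion made by CRISPR/Cas9 in the second exon, and it carried no transgene when it was analysed. No agent was applied. Both genotypes spent 10 days on half-strength MS medium, then 20 days on the undiluted medium, which supplies both nitrate and ammonium. Days had 14 h of light (30 °C) and 10 h of darkness (28 °C). The labels give the tissue as seedling and do not separate shoots from roots.

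Each gene had 1 usable value, the authors' mean normalized count over all 6 libraries, in which oschz1 and wild-type are averaged together. The fold changes, errors and p-values of the table are the authors' own comparison and were not used here. The values below therefore say how many reads a gene received in these seedlings and do not say whether oschz1 differed from wild-type. A mean normalized count also grows with the length of the transcript, and transcript lengths were not used here, so that genes are not ranked against each other by transcript number. In bulk seedling RNA, few cells with much RNA of a gene cannot be told apart from many cells with little.

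Rice takes up ammonium and nitrate through membrane transporters. Nitrate is reduced to nitrite by nitrate reductase in the cytosol and then to ammonium by nitrite reductase in the plastid. Glutamine synthetase (GS) attaches ammonium to glutamate, and glutamate synthase (GOGAT) returns glutamate from the glutamine formed. Both enzymes exist in forms with different places of action: GS1 works in the cytosol and GS2 in the plastid, where it also recaptures the ammonium set free by photorespiration, and GOGAT draws electrons either from ferredoxin in green tissue or from NADH.

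The depth of the libraries could be read from the table itself. For sparsely read genes the mean can take only certain values, because every read of a given library adds the same amount to it. The 6 amounts were fitted to the low means themselves, with the lowest mean taken to be 2 reads of the deepest library. They gave size factors, which scale with depth, between 0.596 and 1.59. With these amounts, all 2243 genes with means under 0.7 were sums of whole reads (100%, within 2e-08). This share describes the fit to the same means and does not test the assumption of 2 reads. The libraries could not be assigned to a genotype by this route. Green tissue was well represented. CAB1R (LOC_Os09g17740), a light-harvesting antenna gene, had the highest mean normalized count of all genes (227551), and the loci listed as RbcS4 and LHCB1.3 had 23023 and 11869.

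Both uptake genes among the members were well covered by reads, and other listed transporter genes are given below. AMT1;1 (LOC_Os04g43070), an ammonium transporter of the plasma membrane, had a mean normalized count of 3369. NRT1.1B (LOC_Os10g40600), a nitrate transporter and sensor, had a mean of 519. At these means, 21650 reads are implied for AMT1;1 over the 6 libraries and 3335 for NRT1.1B, if the level was equal in all libraries. Counting error alone is then 0.68% of the mean for AMT1;1 and 1.73% for NRT1.1B. The spread between libraries is not contained in these errors and is not known from the mean.

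Both members for nitrate and nitrite reduction were among the genes with many reads. NIA1 (LOC_Os08g36480), a nitrate reductase, stood at 3768 and the nitrite reductase gene NiR (LOC_Os01g25484) at 5453, with counting errors of 0.643% and 0.534%. Both lay above 96% of the genes in the table, at the percentiles 96.8 and 98.1. The list of other pathway genes described below calls LOC_Os02g53130 and LOC_Os08g36500 nitrate reductases and LOC_Os02g52730 a nitrite reductase. The reference gene table does not place these names on their chromosomes. These loci had lower means than both members, at 973, 152 and 11.0.

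The glutamine synthetase genes spanned a wide range of reads. The plastid enzyme gene GS2 (LOC_Os04g56400) had a mean normalized count of 25012, the 80th largest in the table. GS1;1 (LOC_Os02g50240), a cytosolic form, had 13084 and was the 190th largest. GS1;2 (LOC_Os03g12290), the cytosolic form known from rice roots for the assimilation of ammonium, had 677. It stood at the percentile 75.3 of all genes and was thus above the median, which was 155.

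The glutamate synthase genes held both the largest and the smallest mean among the 10. Fd-GOGAT (LOC_Os07g46460), the ferredoxin-dependent enzyme of green tissue, had 46888 normalized counts and was the 29th largest of all genes. It received 0.198% of the normalized reads of the whole table. NADH-GOGAT1 (LOC_Os01g48960), one of the NADH-dependent enzymes, stood at 5573. NADH-GOGAT2 (LOC_Os05g48200), its homologue, had 95.0 and was the only member under the median of all genes, at the percentile 44.1. About 610 reads are implied for it, and its counting error of 4.05% was the largest among the members.

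**Figure D1:**
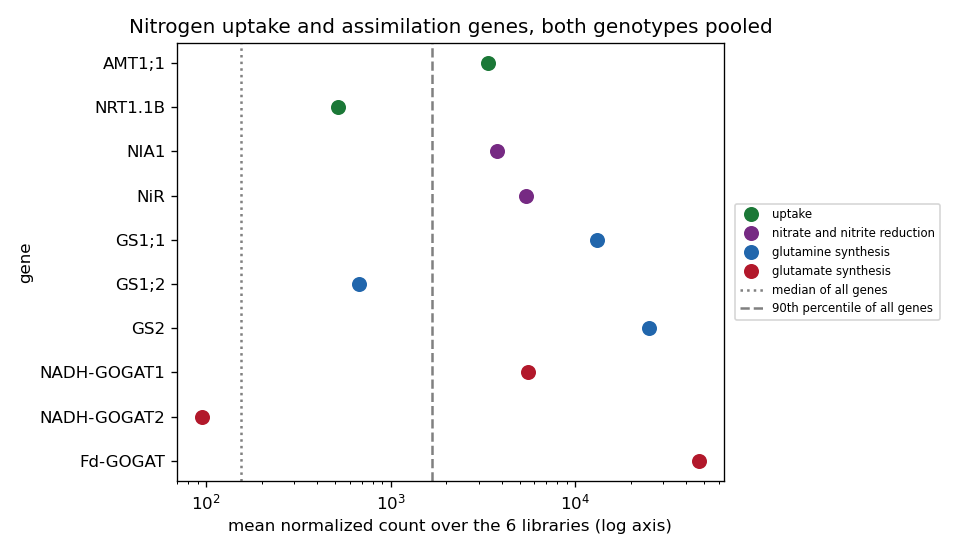
Mean normalized count (log axis) of each of the 10 genes, 1 point per gene, coloured by role and averaged by the authors over all 6 libraries of both genotypes. The dotted and dashed lines mark the median (155) and the 90th percentile (1683) of all genes; 7 points lie right of the dashed line and NADH-GOGAT2 lies left of the dotted line.

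Of the 10 members, 7 were in the top 10% of the 30020 genes by mean normalized count, which began at 1683. They were AMT1;1, NIA1, NiR, GS1;1, GS2, NADH-GOGAT1 and Fd-GOGAT. NRT1.1B, GS1;2 and NADH-GOGAT2 were not. Together the members received 0.441% of all normalized reads. This placement describes the members and was not tested, since they were taken from known pathway enzymes and were not drawn at random.

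Other genes of the pathway were taken whole from a list of 18 loci, of which 17 were in the table. Their means ranged from 0.413 to 3030, with a median of 193, and 2 of them were in the top 10%. For 10 of the 17, the reference gene table places the listed name on the chromosome of the locus. Among these, GDH2 (LOC_Os04g45970) and GDH1 (LOC_Os03g58040), glutamate dehydrogenases, had means of 732 and 492. AMT2;1 (LOC_Os05g39240), an ammonium transporter of another subfamily than AMT1;1, had 630. LOC_Os02g40730, an AMT1 locus that the list calls AMT1;3, had 245. By its order along the chromosome alone, the reference would make it AMT1;2, and its sequence was not compared. NAR2.2 (LOC_Os04g40410), of the family of partner proteins that nitrate transporters of the NRT2 family need, had 143, and the nitrate transporter gene NRT2.3 (LOC_Os01g50820) had 72.3. The other 7 loci, whose listed names the reference does not place on their chromosome, are given by identifier only. LOC_Os06g15420 and LOC_Os08g05910 had means of 3030 and 2136 and were the 2 in the top 10%. LOC_Os01g36720 and LOC_Os02g53130 followed with 1469 and 973. LOC_Os03g18130, LOC_Os08g36500 and LOC_Os02g52730 had 193, 152 and 11.0. The listed genes with the most reads were thus among those given without a name.

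**Figure D2:**
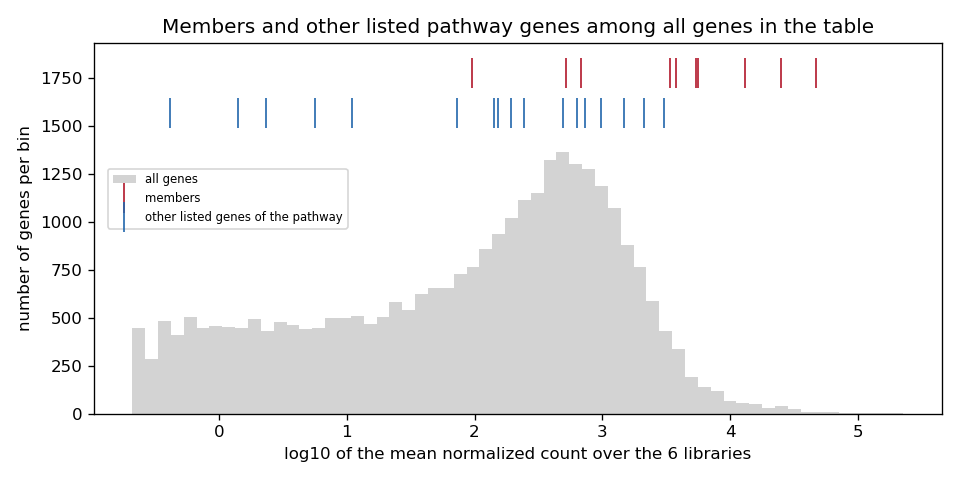
Distribution of the log10 mean normalized count over all 30020 genes (grey bars, number of genes per bin), with the 10 members (red ticks) and the 17 other listed genes of the pathway (blue ticks). The members lie between 95.0 and 46888 on the linear scale, while the other listed genes reach down to 0.413.

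The transporter genes NRT2.1 and NRT2.2 and the partner gene NAR2.1 were almost without reads. For the listed genes with means under 6, the reads of each library were recovered with the fitted amounts described above. Only 1 combination of whole reads gave each mean within 3e-09. The libraries are ordered here from the deepest to the shallowest, and their genotypes are not known. NRT2.1 (LOC_Os02g02170), a high-affinity nitrate transporter, had 2, 1, 0, 4, 0 and 1 reads, 8 in all. NRT2.2 (LOC_Os02g02190), its neighbour and close homologue, had 2 reads in the deepest library, 1 in the fourth and 0 in the other 4. NAR2.1 (LOC_Os02g38230), the partner protein of these transporters, had 6, 3, 0, 1, 4 and 1 reads, 15 in all. The reads came from 4 libraries for NRT2.1, from 2 for NRT2.2 and from 5 for NAR2.1. These low values do not describe the whole list, in which other loci had means of up to 3030. NRT2.1 and NRT2.2 are close copies of each other, and the authors kept only reads that align to a unique place. Reads shared by the copies would be missing from both, and whether this lowered their means was not tested.

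GS1;3 (LOC_Os03g50490), the cytosolic glutamine synthetase gene known from rice grains, had 6, 18, 6, 0, 2 and 6 reads in the same order of libraries. Its 38 reads came in 18 cases from the second deepest library, whose size factor was 1.49 against 1.59 in the deepest library, where 6 reads were found. At these depths a difference between genotypes in NRT2.1, NRT2.2, NAR2.1 or GS1;3 would rest on few reads.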

How the data were processed

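Strand-specific poly(A) RNA-seq libraries of 3 oschz1 and 3 wild-type seedling samples were analysed by the authors with cutadapt, HISAT2 against the Nipponbare genome (MSU annotation), SAMtools for unique reads, featureCounts and DESeq2. The sources used here do not give the strand setting of featureCounts. Reads of overlapping antisense genes may therefore be included. The signal used is the deposited mean normalized count, for which the authors divided each library's counts by its size factor and averaged the 6 libraries. The other 5 numeric columns hold the authors' log2 fold change, its error, test statistic and p-values, and were not used. The table has 0 columns of single libraries, so the comparison of oschz1 with wild-type that had been planned was not run. The level per coding length was not computed either, since no coding lengths were used.

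The members, the list and the rule to report both whole were chosen with earlier results of these data known. Percentiles were taken over all 30020 genes, with an alternative over genes with means of at least 10 and one with the top 5%. The value of 1 read in each library was recovered from the smallest means, with the lowest taken to be 2 reads of the deepest library. The share of low means that are whole sums describes the fit to the same means and is no separate check. The procedure was run on simulated reads of 4437 genes with few reads, where it recovered 6 of 6 known size factors (largest difference 1.2e-10). The same assumption of 2 reads was made there, and the assumption itself was not tested. Reads implied for a member are the mean multiplied by the sum of the size factors, and counting error is the inverse square root of these reads. PCR copies are not independent molecules, so that it covers counting error only. Names were compared with the RefSeq gene table (assembly ASM3414082v1), which places 7 of the 10 members' names on the chromosome of the locus. The names of NiR, NADH-GOGAT1 and NRT1.1B had no match there and are kept as the list of members gives them. Of the other listed loci, those whose names it does not place there are reported by identifier, not by name. The analysis used Python 3.11.15, numpy 2.4.6 and pandas 2.3.3.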

Additional observations from a re-analysis of the deposited data

How the results depend on the processing

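The count of 7 members in the top 10% of genes was also found when only the 22504 genes with means of at least 10 were ranked (7) and when the top 5% was taken (7). Leaving out a replicate and changing the normalization or filter of single libraries were not run, since the value used is 1 mean over all 6 libraries. No paired analysis was possible because the mean carries no replicate numbers and no comparison of the genotypes was made. The alternatives planned for coding length were not run, since no coding lengths were used. Depth limits the values of NRT2.1, NRT2.2 and NAR2.1, with 8, 3 and 15 reads over the 6 libraries.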

Other observations

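The lowest mean, 0.21, was taken to be 2 reads of the deepest library, and the values of 1 read rest on this assumption. With these values, 0 of 30020 means equalled 1 read of any of the 6 libraries. That count is not separate from how the values were set and does not test the assumption. LOC_Os02g40710, the other AMT1 locus of the list, was not found among the 30020 genes and so has no value here. In the list of names, 1 of 25 pairs of names on the same chromosome stood in another order than in the reference, the pair AMT1;2 and AMT1;3. No cause was tested for these values.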
